A study of Mus musculus with 6 samples.

Results

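The genes described here are 206 protein-coding genes with a clear level of expression in HL-1 cells whose mean normalized count was lower after silencing of Malat1. A gene was included if it was annotated as protein coding, averaged at least 100 normalized counts across the 6 libraries, spanned less than 300 kb from start to stop, and had an LNA Control mean at least 1.5 times its LNA Malat1 mean, the limit being set on the ratio of LNA Malat1 to LNA Control, with 1/1.5 rounded to 3 decimals. Left out by name were 8 genes (Tnks, Apln, Car5b, Prmt2, Map7d2, Pafah1b1, Notch2, and Sgcb) and the genes whose symbol starts with Slc, Zfp, Kif, Arhg, Dock, Col, Kdm, Kcn, or Pde, which removed 28 genes that met every other criterion. Of the 21269 genes in the table, 8032 met all criteria other than the ratio and are called eligible here, so the 206 members were 2.56% of them, and 114 eligible genes (1.42%) had a ratio of at least 1.5. The lower level of the members in LNA Malat1 is therefore how they were chosen and not a result, and their values in this comparison are given as a description without a test.

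HL-1 is a contractile cell line derived from mouse atrial cardiomyocytes, grown in medium with serum and norepinephrine. Cells were seeded 24 hours before transfection with RNAiMAX and 50 nM of a gapmer, LNA Control or LNA Malat1, and were collected 48 hours after it, with 3 libraries of total RNA for each gapmer. Both groups thus carried a gapmer and the transfection reagent, each group rests on 1 gapmer, and no untransfected cells were among the samples analysed. The labels number the libraries but do not say whether they came from separate cultures, so the p-values behind the calls below measure the spread between these libraries, which may be technical.

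Malat1 is an abundant long noncoding RNA that stays in the nucleus, where it gathers at nuclear speckles, the stores of splicing factors, and associates with transcribed genes. A gapmer pairs with its target RNA and lets RNase H cut it. Protein-coding genes in mammals carry most of their length in introns, so that the span of a gene and the length of its mature mRNA can differ widely.

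The target RNA itself stood at 5051, 5197, and 4369 normalized counts under LNA Control (replicates 1 to 3) and at 2833, 2792, and 2732 under LNA Malat1, or 57.2% of LNA Control. Its exon overlaps exons of 2 other genes, 1 of them on the same strand, and reads on both would not have been counted. Normalized counts summed to 4758777 to 4921406 per library, and the normalization factors recovered from the rounding steps gave 4512256 to 5593518 reads on genes. On these reads the LNA Malat1 libraries were closer to each other (chi-square of 0.949 to 1.16 per gene, where sampling noise gives about 1) than the LNA Control libraries were (1.77 to 4.18), and LNA Malat1 replicates 1 and 3 differed by less than sampling noise over all genes compared but by more than it in the genes with at least 1600 reads (chi-square of 1.11 per gene). The libraries held cardiomyocyte transcripts such as Ttn (mean normalized count of 10140 in LNA Control), Ryr2 (2499), Gata4 (900), and Tnnt2 (655). The cardiac myosin genes Myh6 (4.7), Myl7 (24), and Myl4 (35.3) were low, and the endothelial marker Pecam1 was at 5. Of 13 markers listed for atrial cardiomyocytes 11 were in the table, and Nppa and Sln were absent. Markers of fibroblasts (4 of 6 in the table) ranged from Col1a2 at 0.3 and Pdgfra at 44.3 to Postn at 888 and Col1a1 at 2187, and those of smooth muscle (4 of 4) from Myh11 at 20.3 to Acta2 at 1188. In bulk RNA, fewer cells that express a gene and less of its RNA per cell cannot be told apart.

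The promoters shown first are those of Evc and Evc2, because these members are the closest neighbours in the genome, and those of Plekha8 and Nsdhl, because these members have the lowest ratios. Each sequence is the 250 bases before the start of the gene in RefSeq (GRCm38.p6), written 5′ to 3′ on the strand of the gene, and capitals mark each match to CCAAT or GGGCGG on either strand. They lie at chr5:37336882-37337131 (minus strand) for Evc, chr5:37338228-37338477 (plus strand) for Evc2, chr6:54594861-54595110 (plus strand) for Plekha8, and chrX:72918271-72918520 (plus strand) for Nsdhl.
Evc: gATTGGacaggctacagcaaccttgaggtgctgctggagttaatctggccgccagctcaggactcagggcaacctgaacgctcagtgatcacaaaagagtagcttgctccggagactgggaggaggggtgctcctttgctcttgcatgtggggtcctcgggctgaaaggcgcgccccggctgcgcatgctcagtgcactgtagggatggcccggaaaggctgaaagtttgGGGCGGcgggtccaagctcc
Evc2: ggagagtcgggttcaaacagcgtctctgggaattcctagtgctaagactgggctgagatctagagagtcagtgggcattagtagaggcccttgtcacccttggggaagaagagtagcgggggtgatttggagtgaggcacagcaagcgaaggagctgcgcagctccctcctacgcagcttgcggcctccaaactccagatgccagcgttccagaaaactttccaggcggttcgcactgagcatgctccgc
Plekha8: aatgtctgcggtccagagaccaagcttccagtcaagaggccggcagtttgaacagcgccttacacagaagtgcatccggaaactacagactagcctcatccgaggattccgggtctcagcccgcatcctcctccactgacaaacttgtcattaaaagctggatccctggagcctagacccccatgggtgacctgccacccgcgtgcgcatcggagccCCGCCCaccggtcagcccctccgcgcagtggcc
Nsdhl: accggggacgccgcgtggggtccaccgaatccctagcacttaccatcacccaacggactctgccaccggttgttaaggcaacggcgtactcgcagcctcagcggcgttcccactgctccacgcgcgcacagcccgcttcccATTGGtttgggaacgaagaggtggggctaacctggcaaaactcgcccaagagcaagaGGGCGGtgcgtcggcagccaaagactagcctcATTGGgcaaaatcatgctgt

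Evc had 1 match to each of these motifs and Plekha8 had 1 match to GGGCGG. Nsdhl held 3 matches, 2 of them to CCAAT. In the Evc2 sequence neither motif was present in this window. The window of Nsdhl held 21 CG dinucleotides, that of Plekha8 15, and those of Evc and Evc2 11 each, with a GC content of 57.2% in Evc2 and 60.8% to 61.6% in the other 3. Matches to such short motifs are common and are not evidence of binding. Of 12584 promoters of genes in the table, 36.1% held CCAAT and 54.6% held GGGCGG, and the other motifs searched on both strands were TATAAA (7.27%), TGACGTCA (2.48%), CACGTG (7.97%), TGACTCA (3.41%), and GGAATG (11%), which had no match in the 4 windows. A promoter sequence was matched for 162 of the 206 members (78.6%), under the 80% set as the minimum for a comparison over the set, so a comparison of motifs between members and other genes was void.

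Across the members, the mean in LNA Malat1 was 59.8% of LNA Control at the median (quartiles 54.0% and 63.4%) and reached from 35.3% to 66.6%. Only 5 members were at or under a ratio of 0.4 and 24 lay between 0.4 and 0.5, whereas 100 lay between 0.6 and the limit. By limma (adjusted p up to 0.05 with a fold change of 1.5 or more) all 206 were called lower, against 2.92% of the 15650 genes tested and 2.56% of the eligible genes, and none was called higher, against 8.0% and 1.43%. Without the fold change minimum, limma called 14.0% of the genes tested and 21.0% of the eligible genes lower, and 14.3% and 10.4% higher. In 205 members the 3 LNA Malat1 libraries all lay below the 3 LNA Control libraries, against 20.8% of the genes tested and 30.5% of the eligible genes. The rule used the same comparison, so nothing is read from these counts, nor from the separation of the groups in the single members named below. The exception was Egln3, a prolyl hydroxylase that marks hypoxia-inducible factor for degradation, which had 152, 108, and 171 under LNA Control and 82, 108, and 92 under LNA Malat1, so that the groups met at 108.

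**Figure D1:**
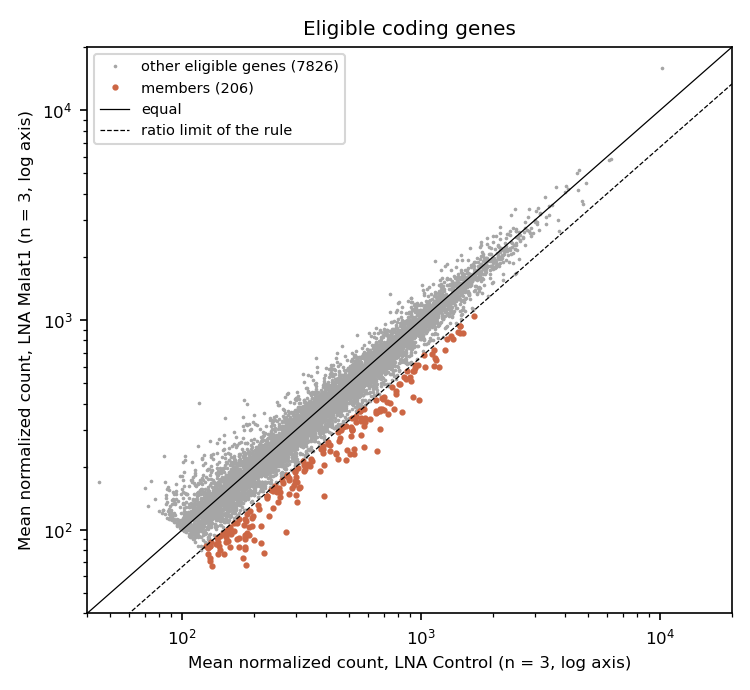
Mean normalized count in LNA Malat1 (vertical, log axis, n = 3) against that in LNA Control (horizontal, log axis, n = 3) for the 8032 eligible genes, with the 206 members in colour, a solid line at equal means, and a dashed line at the ratio limit. The members form a band under the dashed line because the rule cuts there, and they reach from a mean of 126 to one of 1669 in LNA Control.

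The 3 members just inside the limit were Adcy1, Ss18, and Uri1, at 66.5% to 66.6% of LNA Control. Uri1, a chaperone subunit of the prefoldin family, had 543, 563, and 554 under LNA Control and 360, 383, and 362 under LNA Malat1. Eligible genes just outside it included Dido1 and Rwdd2b, at 66.7% and 66.8%. Dido1, a nuclear protein with a PHD finger, had 1442, 1456, and 1381 under LNA Control and 975, 951, and 930 under LNA Malat1, so nothing in the data separates the genes on either side of the limit.

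At the median over the members, levels were similar across the libraries of each group. The LNA Control values below are percents of the mean of the same 3 libraries, so they centre near 100%. The rule itself set the lower level in LNA Malat1. The median member stood at 99.7%, 100.3%, and 99.6% of its LNA Control mean in LNA Control replicates 1, 2, and 3 and at 57.9%, 58.5%, and 60.3% in LNA Malat1 replicates 1, 2, and 3. The median of the other eligible genes was between 96.7% and 97.7% in the LNA Malat1 libraries. Summed over the members, the normalized counts were 96920, 96018, and 94340 in LNA Control, or 1.95% to 1.98% of each library, and 54840, 55273, and 56580 in LNA Malat1, or 1.15% to 1.19%. The coefficient of variation of a member within a group was 5.26% at the median in LNA Control (5.48% in the other eligible genes) and 5.36% in LNA Malat1 (4.05% in the others). In single members it reached 22.5% in LNA Control and 18.9% in LNA Malat1.

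Because the members were chosen on all 6 libraries, the choice was repeated with the libraries of 1 replicate number left out, and the ratio was then read in the pair left out. Without the libraries numbered 1, 199 genes met the rule, 181 of them members, and in the pair left out LNA Malat1 stood at 58.3% of LNA Control at the median (quartiles 51.7% and 64.6%). All 199 were below 100% there, and 165 (82.9%) again met the limit on the ratio, against 1.56% of the other eligible genes, whose median was 96.0%. Without the libraries numbered 2, 209 genes met the rule (188 of them members), the median in the pair left out was 59.6%, and 166 (79.4%) met the limit, against 0.98% of the others. Without the libraries numbered 3, 248 met the rule (194 of them members), the median was 63.3%, and 155 (62.5%) met the limit, against 0.58% of the others. The share that met the limit again was thus lowest in the pair numbered 3. In the pairs numbered 2 and 3, 208 of 209 and all 248 genes were below 100%, against 59.3% and 54.6% of the other eligible genes. With 1 library against 1 in each pair there is no test, and the pairs were normalized together with the libraries used for the choice. The labels do not say whether the same replicate number marks a shared culture. The other eligible genes are those that missed the rule in the libraries used for the choice, so a low share among them follows in part from that choice. LNA Malat1 replicates 1 and 3 differed by less than sampling noise over all genes compared, so leaving out either kept a close match in the choice.

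**Figure D2:**
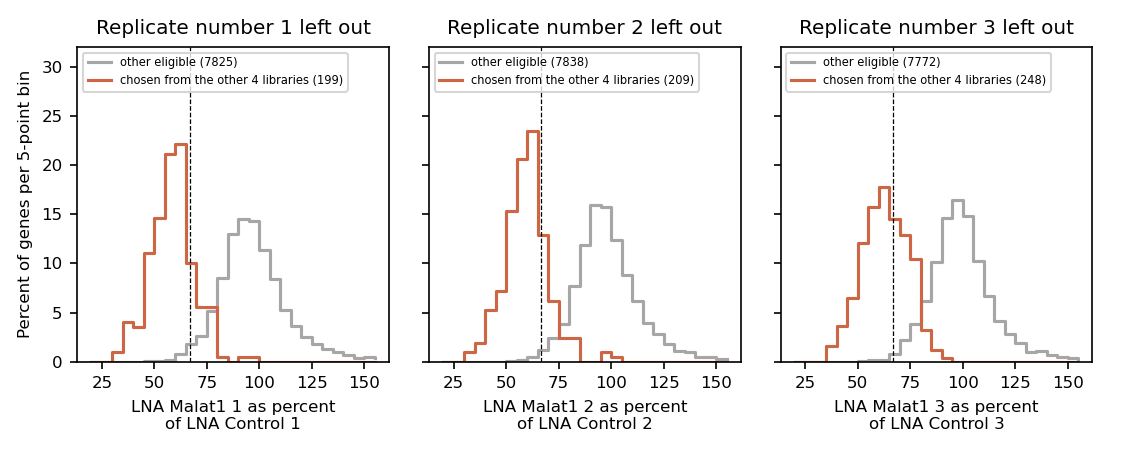
Level in LNA Malat1 as a percent of LNA Control in the pair of libraries left out of the choice (horizontal, bins of 5 points, shown from 20 to 160), as the percent of genes per bin (vertical), for genes chosen from the other 4 libraries (coloured line) and the other eligible genes (grey line), with a dashed line at the limit of the rule. In each of the 3 panels the chosen genes lie to the left of the others, with medians of 58.3%, 59.6%, and 63.3%.

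The 12 members with the lowest ratios are given one by one, each with what it is known to do. Plekha8, which moves glycosphingolipid precursors at the Golgi (ENSMUSG00000005225, chr6:54595111-54645839, plus strand), had 198, 242, and 222 under LNA Control and 72, 84, and 78 under LNA Malat1, or 35.3% (log2 fold change -1.49, SE 0.10). Nsdhl, an enzyme of cholesterol synthesis (ENSMUSG00000031349, chrX:72918557-72958514, plus strand), had 270, 283, and 259 against 96, 101, and 95, or 36.0% (log2 fold change -1.47, SE 0.08). Mtmr3, a phosphatase of phosphoinositides (ENSMUSG00000034354, chr11:4480868-4594863, minus strand), had 633, 666, and 655 against 224, 245, and 243, or 36.4% (log2 fold change -1.45, SE 0.06). In each of these genes the highest LNA Malat1 library was under the lowest LNA Control library by a wide margin, and the libraries of a group were close.

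Rtn4rl1, a receptor of the Nogo family at the cell surface, had 193, 188, and 174 under LNA Control and 65, 66, and 74 under LNA Malat1, or 36.9%. Trmt2b, which methylates mitochondrial tRNA and rRNA, had 357, 431, and 383 against 141, 138, and 157, or 37.2%. Zdhhc21, which attaches palmitate to proteins, had 746, 881, and 866 against 354, 369, and 365, or 43.6%. The spread of Trmt2b and Zdhhc21 was wider in LNA Control than in LNA Malat1, and neither gene overlapped between groups. Nck2, an adaptor that links receptor tyrosine kinases to actin, had 211, 212, and 216 against 75, 98, and 86, or 40.5%. Wasf1, a subunit of the WAVE complex that starts actin branching, had 212, 154, and 173 against 72, 77, and 72, or 41.0% (log2 fold change -1.26, SE 0.12). Wasf1 was the most variable of these 12 members in LNA Control, where replicate 1 was highest, yet its lowest LNA Control library was still above all 3 LNA Malat1 libraries. Strip2, a part of the STRIPAK phosphatase and kinase complex, had 173, 184, and 195 against 75, 75, and 92, or 43.8%, and Tollip, an adaptor of Toll-like receptor signalling and endosomal sorting, had 533, 538, and 495 against 227, 237, and 227, or 44.1%.

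**Figure D3:**
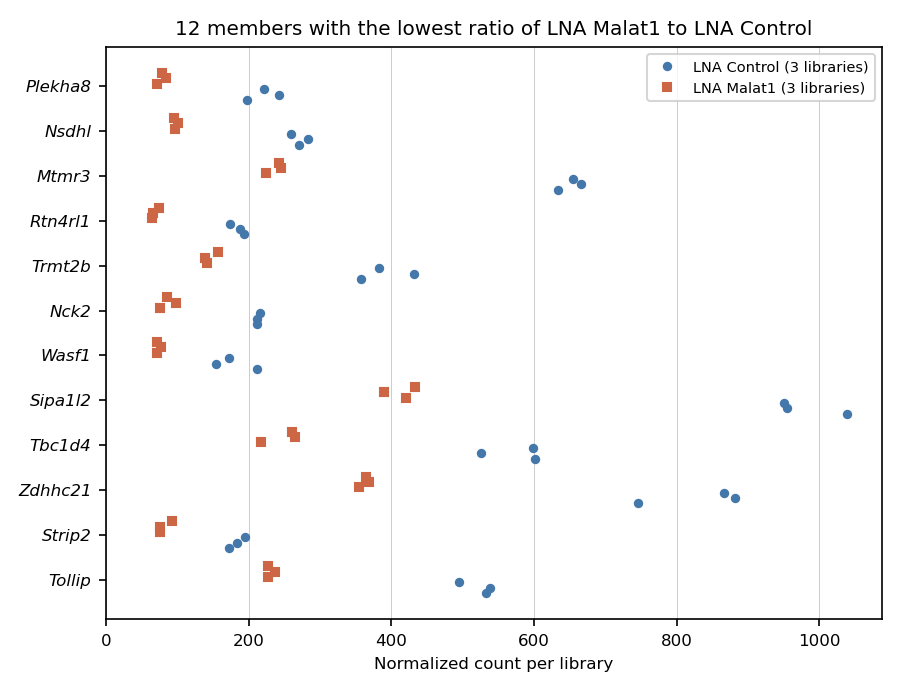
Normalized counts in each library (horizontal, linear axis from 0) of the 12 members with the lowest ratios, with circles for the 3 LNA Control libraries and squares for the 3 LNA Malat1 libraries of each gene. The groups do not overlap in any of the 12 genes, from Plekha8 at 35.3% of LNA Control to Tollip at 44.1%. LNA Malat1 was likewise wholly below LNA Control in 205 of the 206 members, and in 30.5% of the eligible genes.

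The members were next grouped by function, using 17 lists of gene symbols and 38 GO terms, of which the table gives a term to 180 of the members (87.4%) and 86.8% of the other eligible genes. For each list the share of its eligible genes that were members is read beside the 2.56% of all eligible genes, without a test. Counts of tested genes called lower and higher are read beside 2.92% and 8.0% of all genes tested. Without the fold change minimum those shares are 14.0% and 14.3%. More genes called higher than lower in a list is thus the pattern of all genes tested. Among the eligible genes, which have higher counts, the order was the other way, with 2.56% called lower and 1.43% higher. The lists were chosen with earlier results of these data known and overlap each other.

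The highest share among these lists and terms was that of GTPase activator activity, the term for proteins that make small G proteins or heterotrimeric G proteins hydrolyse GTP and so switch them off. Of its 98 eligible genes, 10 were members (10.2%): Sipa1l2, Tbc1d4, Rgs19, Nprl2, Tbc1d30, Lrrk2, Arfgap3, Rgs3, Nf1, and Tbc1d25. Genes whose names begin with Arhg were not eligible by the rule. A further 19 genes of this term were left out for that name only, none of them within the limit on the ratio, and with them the share was 10 of 117 (8.55%). Over all 159 tested genes of the term, of which 30 were Arhg genes with 0 called lower or higher by limma (8 lower and 2 higher without the fold change minimum), 14 were called lower (the 10 members with Adgrb3, Tbc1d8, Depdc1b, and Plcb1) and 4 higher (among them Rasal1, Tbc1d10c, and Plekhg6), and without the fold change minimum 50 were lower and 16 higher at a limma adjusted p of at most 0.05. The median log2 fold change of the term was -0.10, against 0.02 over all genes tested. Genes of the term were also long, with a median span of 56.9 kb against 27.2 kb in all eligible genes. Among eligible genes spanning at least 50 kb, 7 of the 54 in the term were members (13%), against 4.81% of all 2348, and among shorter genes 3 of 44 were (6.82%), against 1.64% of 5684.

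Sipa1l2, which acts on the small G protein Rap, had 1039, 955, and 950 under LNA Control and 421, 390, and 433 under LNA Malat1, or 42.3%. Tbc1d4, the Rab regulator through which insulin releases the glucose transporter Glut4 to the cell surface, had 601, 525, and 598 against 217, 265, and 261, or 43.1%. Nf1, the Ras regulator neurofibromin, had 1572, 1412, and 1367 against 938, 889, and 968, or 64.2%. In these 3 genes the groups were far apart, and the relative change of Nf1 was the smallest of the 3. Rgs19, which acts on heterotrimeric G proteins, had 247, 235, and 237 against 126, 128, and 126, or 52.9%, with an LNA Malat1 range of 2. Nprl2, a subunit of the complex that holds mTORC1 inactive when amino acids are scarce, had 133, 151, and 138 against 61, 82, and 88, or 54.7%, and was the more variable in LNA Malat1. Rgs3, of the same family as Rgs19, had 240, 267, and 286 against 175, 133, and 195, or 63.4%, with the nearest libraries of the groups at 195 and 240.

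**Figure D4:**
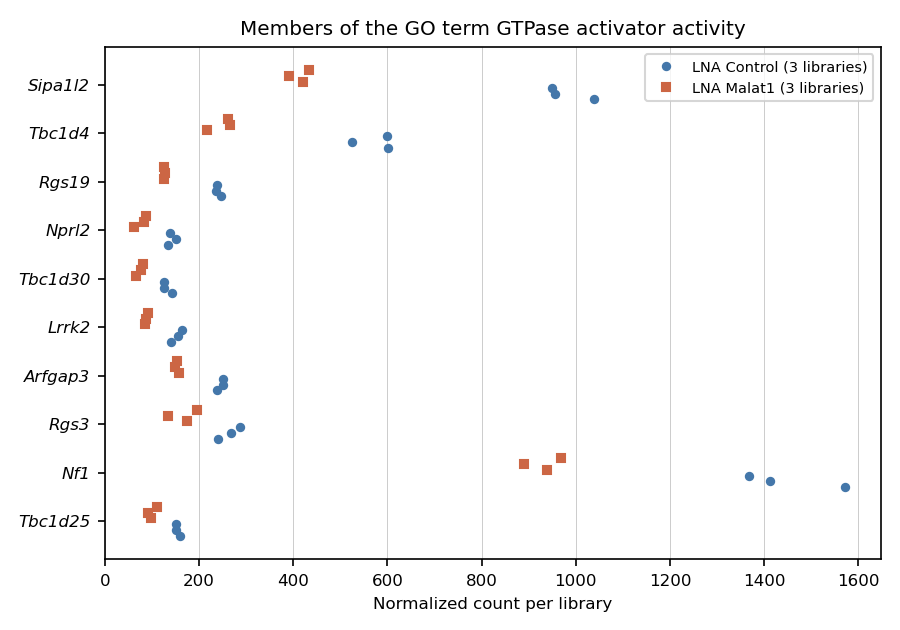
Normalized counts in each library (horizontal, linear axis from 0) of the 10 members with the GO term GTPase activator activity, with circles for the 3 LNA Control libraries and squares for the 3 LNA Malat1 libraries. The groups are separate in all 10 genes, with Sipa1l2 lowest at 42.3% of LNA Control and Tbc1d25 nearest the limit at 65.1%. LNA Malat1 was likewise wholly below LNA Control in 205 of the 206 members, and in 30.5% of the eligible genes.

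On the other side of the same switches, 3 of 80 eligible genes of guanyl-nucleotide exchange factor activity were members (3.75%), namely Nck2, Cyth1, and Rabif. Of the 128 tested exchange factor genes, 3 were called lower and 10 higher, against 2.92% and 8.0% of all genes tested. Cyth1, which activates Arf proteins, had 169, 204, and 178 under LNA Control and 83, 80, and 85 under LNA Malat1, or 45.0%. Among the G proteins themselves 6 of 114 eligible genes of GTPase activity were members (5.26%), which include Rab22a and Rab11b of endosomal recycling, Rragd of amino acid signalling at the lysosome, and the elongation factor Eefsec for selenocysteine. Rab22a had 768, 733, and 721 against 398, 417, and 386, or 54.1%, without overlap. Over the term, 9 of 146 tested genes were called lower and 7 higher.

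Of 332 eligible genes of protein kinase activity 10 were members (3.01%, near the 2.56% of all eligible genes), and of the 429 tested 14 were called lower and 18 higher. Igf1r, the receptor of insulin-like growth factor 1 and the member with the highest mean normalized count, had 1907, 1575, and 1526 under LNA Control and 1031, 995, and 1109 under LNA Malat1, or 62.6%. Its LNA Control replicate 1 stood above the other two, and all 3 LNA Control libraries stood above LNA Malat1. Igfbp5, a secreted binder of this growth factor, had 513, 431, and 429 against 288, 233, and 299, or 59.7%. Igf1r was the only member among 42 eligible genes of the list for PI3K, AKT, and mTOR signalling (2.38%), in which 2 of 45 tested genes were called lower and 1 higher.

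In MAP kinase signalling 2 of 43 eligible genes were members (4.65%), and 3 of 54 tested genes were called lower and 1 higher. Map2k7, the kinase that activates JNK, had 344, 366, and 317 under LNA Control and 215, 184, and 204 under LNA Malat1, or 58.7%, and Map3k3, which acts upstream of several MAP kinases, stood at 63.0%. The exons of Map2k7 overlap those of another gene on the same strand, and reads on both would not have been counted. Of the regulators of Ras and Rap, 2 of 30 eligible genes were members (6.67%), Sipa1l2 and Nf1, while 2 of 41 tested genes were called lower and 4 higher. Smad2, which carries the signal of TGF-β receptors to the nucleus, had 651, 644, and 644 against 336, 378, and 367, or 55.8%. Tgfbr3, the coreceptor betaglycan, had 249, 254, and 264 against 143, 160, and 150, or 59.1%, and also shares exonic sequence with a gene on the same strand. In both genes the LNA Malat1 libraries lay well below those of LNA Control. Fzd3, a receptor of Wnt ligands, had 453, 537, and 537 against 249, 272, and 321, or 55.1%. Stk38, a kinase of the Hippo family, had 1097, 1044, and 986 against 605, 599, and 582, or 57.1%. Neither of these 2 genes overlapped between the groups, and LNA Malat1 replicate 3 was the highest of its group for Fzd3.

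Genes of heart rhythm and calcium handling were also found among the members. Hcn4, the main pacemaker channel of the sinoatrial node, had 731, 648, and 674 under LNA Control and 404, 415, and 461 under LNA Malat1, or 62.3%. Cacna1g, the T-type calcium channel Cav3.1, had 767, 684, and 638 against 377, 329, and 416, or 53.7%. Itpr3, a calcium release channel of the endoplasmic reticulum, had 956, 970, and 839 against 433, 421, and 429, or 46.4%, and Stim2, the sensor of calcium in that store, stood at 62.6%. In all 4 the LNA Malat1 libraries lay wholly below LNA Control, as in 205 of the 206 members and in 30.5% of the eligible genes. They were picked out after their values were seen and are no tested list. Of the 146 eligible genes of the term calcium ion binding 7 were members (4.79%), and of its 292 tested genes 15 were called lower and 36 higher. Itpr3 was one of 14 members whose exons overlap those of a gene on the same strand. Calmodulin binding had 3 members among 62 eligible genes (4.84%), with 6 of 102 tested genes called lower and 7 higher. Adcy1, a calmodulin-stimulated adenylyl cyclase, was one of them at 66.5%, and Eef2k, the kinase that slows translation elongation, another at 58.4%.

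Of the deubiquitinases, which remove ubiquitin from proteins, 3 of 62 eligible genes were members (4.84%), and 3 of 69 tested genes were called lower and none higher. Without the fold change minimum 8 were lower and 1 was higher at a limma adjusted p of at most 0.05. Usp7, which stabilizes Mdm2 and p53, had 1164, 1100, and 1073 under LNA Control and 715, 649, and 699 under LNA Malat1, or 61.8%. Usp46 had 584, 589, and 570 against 330, 331, and 360, or 58.6%, and Usp45 stood at 63.6%. The GO term for ubiquitin-specific proteases held the same 3 members among 56 eligible genes (5.36%), with 3 of 61 tested genes called lower and none higher. The enzymes that attach ubiquitin gave a lower share, with 4 members (Kbtbd11, Klhl29, Nsmce2, and Fbxo25) among 261 eligible genes of ubiquitin-protein transferase activity (1.53%, 8 of 310 tested lower and 15 higher), none among 146 of ubiquitin protein ligase activity (2 of 170 lower and 7 higher), and none among 50 HECT and cullin-RING ligases (1 of 54 lower and 1 higher). None of 56 eligible genes of the proteasome complex was a member, and 0 of its 60 tested genes were called in either direction by limma, although 10 were lower and 3 higher without the fold change minimum.

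In the list for DNA damage response and repair 3 of 56 eligible genes were members (5.36%), and 6 of 63 tested genes were called lower and 1 higher. Trp53bp1, which steers the repair of double-strand breaks, had 720, 743, and 712 under LNA Control and 361, 348, and 358 under LNA Malat1, or 49.1%, with a narrow range in both groups. Xpa, which verifies lesions in nucleotide excision repair, had 155, 185, and 179 against 89, 75, and 85, or 48.0%. Xrcc2, which acts in homologous recombination, had 273, 306, and 288 against 159, 152, and 166, or 55%. Genes of the list called lower that were not members, such as Fancc and Fancl, had a mean over the 6 libraries under 100.

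Cell cycle genes were members at the background share. Of 896 eligible genes of the GO term cell cycle 23 were members (2.57%), and of 1087 tested genes 37 were called lower and 37 higher. For cell division the share was 10 of 345 (2.90%), with 16 of 418 tested genes called lower and 8 higher. For the mitotic spindle it was 2 of 38 (5.26%), with 2 of 48 lower and none higher. Map4, which stabilizes microtubules, had 1643, 1435, and 1392 under LNA Control and 852, 848, and 892 under LNA Malat1, or 58.0%. Cep152, a scaffold that duplicating centrioles are built on, had 376, 422, and 383 against 217, 197, and 195, or 51.6%. The groups were separate in Map4 and Cep152. Cep152 was the 1 member among 58 eligible genes of the cilium and centriole list (1.72%), in which 2 of 73 tested genes were called lower and 3 higher. The retinoblastoma relative Rbl2 stood at 63.5%, the inhibitor Cdkn1c at 63.5%, the phosphatase Cdc14a at 63.7%, and the repressor E2f6 at 66.0% of LNA Control. Cenpi, a centromere protein on the X chromosome, had 647, 705, and 676 against 374, 371, and 385, or 55.7%. Ska1, which ties kinetochores to microtubules, had 263, 299, and 262 against 183, 179, and 181, or 65.9%. Members thus included both genes that promote division and genes that hold it back.

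Microtubule binding had 5 members among 96 eligible genes (5.21%, 9 of 154 tested lower and 3 higher), actin binding 4 among 181 (2.21%, 7 of 251 lower and 20 higher), and the centrosome 6 among 316 (1.90%, 10 of 388 lower and 5 higher). In the list for integrins and focal adhesion 2 of 33 eligible genes were members (6.06%), the scaffold Tns3 and the Src family kinase Fyn, while 4 of 45 tested genes were called lower and 5 higher. Fyn had 286, 287, and 267 under LNA Control and 166, 169, and 197 under LNA Malat1, or 63.3%. The GO term focal adhesion held 2 members among 242 eligible genes (0.83%, 4 of 302 lower and 13 higher), and cell adhesion 9 among 551 (1.63%, 29 of 839 lower and 65 higher). Over all genes tested, 2.92% were called lower and 8.0% higher.

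In membrane traffic, the list for endocytosis and endosome sorting had 3 members among 74 eligible genes (4.05%), with 3 of 78 tested genes called lower and 2 higher. Vps13d, which transfers lipids between organelles, had 1363, 1356, and 1351 under LNA Control and 771, 812, and 846 under LNA Malat1, or 59.7%. Rab11b stood at 58.6% and Epn2, an adaptor of clathrin coats, at 61.4%. Atp10a and Atp11a, both flippases that move lipids to the inner leaflet of membranes, stood at 44.1% and 63.8%. Atp11a had 1590, 1461, and 1331 against 914, 949, and 932. The GO term endosome had 13 members among 397 eligible genes (3.27%, 19 of 507 tested lower and 19 higher), phosphatidylinositol binding 3 among 110 (2.73%, 6 of 145 lower and 3 higher), the Golgi apparatus 14 among 658 (2.13%, 28 of 882 lower and 38 higher), the endoplasmic reticulum 21 among 740 (2.84%, 41 of 1007 lower and 41 higher), the lysosome 5 among 230 (2.17%, 8 of 320 lower and 22 higher), and the plasma membrane 40 among 1270 (3.15%, 97 of 2115 lower and 176 higher). In the autophagy list the only member was Tfeb, the transcription factor of lysosome genes, which had 274, 270, and 283 against 203, 171, and 175, or 66.4%. Tfeb was 1 of 44 eligible genes (2.27%), and 3 of 47 tested genes were called lower and none higher.

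Regulators of transcription were among the members in about the background share. Sequence-specific DNA binding had 14 members among 477 eligible genes (2.94%, 29 of 715 tested lower and 34 higher), and chromatin binding 6 among 291 (2.06%, 8 of 352 lower and 9 higher). Nrf1, which drives nuclear genes of respiration, had 516, 546, and 506 under LNA Control and 224, 254, and 249 under LNA Malat1, or 46.4%. Epc1, a subunit of the NuA4 acetyltransferase, had 656, 712, and 646 against 300, 299, and 305, or 44.9%, with a range of 6 in LNA Malat1. Tcf12, a basic helix-loop-helix factor, had 1067, 1148, and 1180 against 591, 604, and 617, or 53.4%. The groups were separate in these 3 genes. Corepressors had 4 members among 94 eligible genes (4.26%, 5 of 117 tested lower and 1 higher), namely Irf2bp2, Eid1, Rcor2, and Uri1. Coactivators had 1, Ss18, among 141 (0.71%, 1 of 164 lower and 6 higher). None of 52 eligible genes of the list for Mediator and its cofactors and none of 47 chromatin remodellers was a member. By limma 0 of the 58 and 51 tested genes of these 2 lists were called in either direction, although 11 and 12 were lower and 2 in each were higher without the fold change minimum.

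RNA binding had a share under the background, with 18 members among 1083 eligible genes (1.66%, 27 of 1244 tested lower and 16 higher). Tia1, a protein of stress granules that also guides splicing, had 420, 434, and 470 under LNA Control and 206, 237, and 251 under LNA Malat1, or 52.4%. Adarb1, which edits adenosine to inosine in RNA, had 627, 546, and 553 against 304, 293, and 341, or 54.3%. The exons of Tia1 overlap a gene on the same strand, and both genes were without overlap between groups. For mRNA processing 9 of 302 eligible genes were members (2.98%, 11 of 337 tested lower and 3 higher). No member carried the term nuclear speck, the compartment where Malat1 gathers, among 69 eligible genes, and 2 of its 79 tested genes were called lower and 1 higher. The nucleolus had 6 of 482 (1.24%, 11 of 579 lower and 8 higher), translation 9 of 366 (2.46%, 13 of 462 lower and 7 higher), ribosomal proteins 1 of 98 (1.02%, 2 of 156 lower and none higher), and stress granules 1 of 27 (3.70%, 1 of 29 lower and none higher). None of 46 eligible genes of microRNA silencing and mRNA decay was a member (0 of 52 lower and 1 higher). Xpo7, an exporter of proteins from the nucleus, had 905, 891, and 916 against 485, 531, and 516, or 56.5%, and was the 1 member among 53 eligible genes of nuclear transport (1.89%, 1 of 55 lower and none higher).

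The mitochondrion had 21 members among 1009 eligible genes (2.08%), and of its 1350 tested genes 45 were called lower and 33 higher. Mrs2, the magnesium channel of the inner membrane, had 815, 768, and 734 under LNA Control and 355, 370, and 407 under LNA Malat1, or 48.9%. Bckdhb, Mccc2, Ebp, Bnip3, and Car12 were named after their values were seen and form no list. Bckdhb and Mccc2, both of branched-chain amino acid breakdown, stood at 53.0% and 53.6%. Ebp, which acts in cholesterol synthesis as Nsdhl does, had 516, 559, and 466 against 301, 324, and 277, or 58.5%. Aldoc, an aldolase of glycolysis, had 387, 396, and 385 against 251, 253, and 250, or 64.6%, and was one of the 5 members with the smallest spread. The others of these 5 were Rhbdd1 at 61.6%, Ccny at 55.3%, Dcun1d2 at 56.1%, and Tmed4 at 59.8%. Bnip3, a mitophagy receptor, stood at 50.1%, Ndrg1 at 51.0%, and the carbonic anhydrase Car12 at 60.7% of LNA Control. None of 37 eligible genes of mitochondrial dynamics and import (0 of 42 tested called lower or higher by limma, 9 lower and 1 higher without the fold change minimum) and none of 17 of the circadian clock (0 of 23 lower and 1 higher) was a member. Protein phosphatase 1 and its partners had 1 of 29 (3.45%, 1 of 34 lower and 1 higher), the p53 partner Ppp1r13b at 55.7%, and the extracellular space had 5 of 266 (1.88%, 15 of 490 lower and 56 higher).

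The rule set an upper limit on span but did not otherwise use the length of the genes, and the members were longer than the other eligible genes. Their median span was 54.6 kb (quartiles 26.9 and 116 kb), against 26.8 kb (12.5 and 57.2 kb) in the other eligible genes and 28.2 kb in the 114 with a ratio of at least 1.5. The share of eligible genes that were members was 1.49% under 10 kb (23 of 1539), 1.26% from 10 to 25 kb (28 of 2231), 2.19% from 25 to 50 kb (42 of 1914), 3.65% from 50 to 100 kb (51 of 1399), 6.39% from 100 to 200 kb (48 of 751), and 7.07% from 200 to 300 kb (14 of 198). Above 25 kb it was higher in each longer bin. The share with a ratio of at least 1.5 stayed between 1.11% and 1.72% up to 200 kb and was 0.51% (1 gene) beyond it. Outside the limit of the rule, 40 of 181 coding genes that spanned at least 300 kb met the limit on the ratio (22.1%) and 2 had one of at least 1.5. These 181 had a mean of at least 100. Names that the rule leaves out were removed from the bins but not from these 181. Genes are not replicates, so no test across genes is given.

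**Figure D5:**
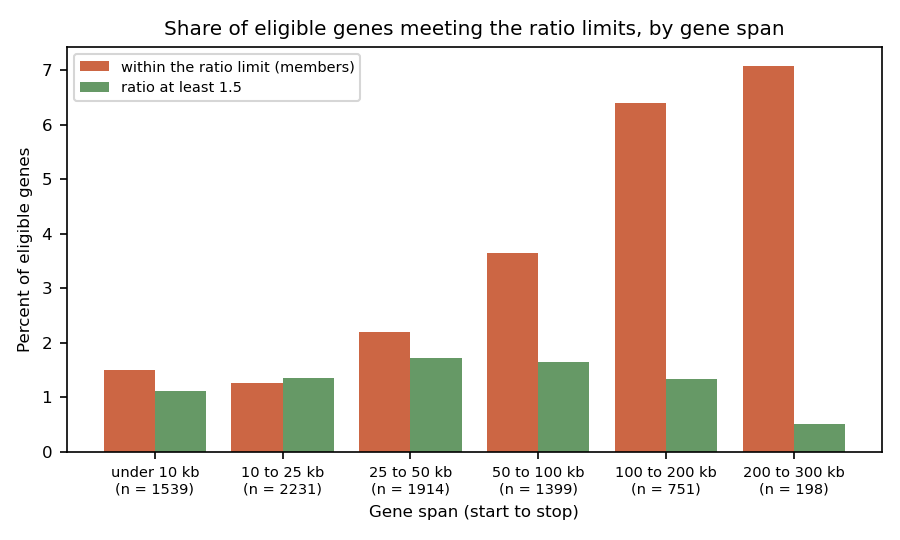
Percent of eligible genes (vertical, from 0) that met the limit of the rule (members) and with a ratio of at least 1.5, by the span of the gene (horizontal, 6 bins with the number of eligible genes in each). The share of members goes from 1.49% under 10 kb to 7.07% from 200 to 300 kb, and that of genes with the higher ratio does not exceed 1.72% in any bin.

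Most of the difference in span lay in introns. The median intron length was 49510 bases in the members and 21396 in the other eligible genes, while the median exonic length was 5964.5 and 4957 bases and the number of exons 11 and 10. In the 114 eligible genes with a ratio of at least 1.5, the median intron length was 21470 bases. Their median exonic length (6003 bases) and number of exons (11) were close to those of the members. When eligible genes were split into tertiles by exonic length (at 3.83 and 6.41 kb) and by span (at 16.6 and 43.8 kb), the tertile of longest span had 4.94%, 4.62%, and 4.47% members among genes of short, middle, and long exonic length. In the tertile of shortest span the shares were 1.5%, 0.85%, and 0%, the last among 182 genes. The 14 members over 200 kb included Igf1r (281 kb), Efna5 (277 kb), Tcf12 (269 kb), Nf1 (242 kb), Tns3 (233 kb), and Vps13d (222 kb), and the shortest members included G0s2 (1.06 kb), Eid1 (1.69 kb), Rnf227 (2.18 kb), and Cdkn1c (2.71 kb). Vps13d and G0s2, a regulator of lipid breakdown with 150, 151, and 148 under LNA Control and 84, 80, and 66 under LNA Malat1 (51.2%), thus met the rule at lengths that differ widely.

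The 3′ untranslated region was also longer, with a median of 1603.5 bases in the members and 1066 in the other eligible genes, whereas the coding sequence (1600.5 and 1470 bases) and the 5′ untranslated region (179 and 169 bases) differed less. The share of members was 1.38% among genes with a 3′ untranslated region under 0.25 kb and 4.36% among those with 4 kb or more, for which Zdhhc21 (7591 bases), Igf1r (7267 bases), and Plekha8 (4858 bases) are examples. Span and the 3′ untranslated region were not separated from each other here. The GC content of the transcript was 49.1% at the median in the members and 49.9% in the others. The members had lower normalized counts (median 267 against 381), and the share of members was highest, at 5.63%, among genes with a mean from 100 to 150 and lowest, at 0.96%, in the bin of the highest means. The share with a ratio of at least 1.5 was likewise 4.07% and 0.53% in these bins. Relative counting error is also larger at low counts, and its part in these shares was not tested.

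Members lay on all 20 chromosomes with eligible genes, from 1.5% of the eligible genes of chromosome 13 (4 of 267) to 4.55% of chromosome 18 (9 of 198) and 4.2% of the X chromosome (11 of 262). Only 6 pairs of successive members were within 100 kb. Evc and Evc2, which form a complex at the base of the primary cilium that passes on hedgehog signals, lie head to head on chromosome 5 with 1605 bases between them, and their promoters are the first sequences shown above. Evc (chr5:37289098-37336894, minus strand) had 302, 302, and 297 under LNA Control and 146, 138, and 157 under LNA Malat1, or 48.9% (log2 fold change -1.03, SE 0.07). Evc2 (chr5:37338499-37425055, plus strand) had 635, 667, and 636 against 410, 419, and 417, or 64.3% (log2 fold change -0.64, SE 0.05). Both genes were separate between groups, and the relative fall was larger in Evc. The other pairs were Tbc1d25 and Ebp, 9.1 kb apart on the X chromosome, Trmt2b and Cenpi, 31.1 kb apart on the X chromosome, Cep152 and Eid1 on chromosome 2 (48.0 kb), Supt6 and Aldoc on chromosome 11 (77.0 kb), and Strip2 and Nrf1 on chromosome 6 (88.3 kb). In 68 members (33.0%, against 38.2% of the other eligible genes) an exon overlapped an exon of another gene, and in 14 of them a gene on the same strand. The sources used here do not give whether reads were counted by strand, which decides whether reads on genes of opposite strands were assigned.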

How the data were processed

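RNA of HL-1 cells was sequenced with 3 LNA Control and 3 LNA Malat1 libraries, grouped by the sample labels. By the study's methods and the submitters' processing notes, the authors used Trimmomatic 0.39 for trimming and STAR 2.7.7a for alignment to mm10, counted reads at least partly on exons with featureCounts 1.6.5, dropped reads that hit more than 1 gene or region, and used DESeq2 1.30.0. The deposited values are a score: each library's counts were divided by a factor of its own and rounded. They are called normalized counts here. The same table gave gene positions, biotypes, and the GO terms used for the lists.

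The 15650 of 21269 genes whose mean reached 5 normalized counts were tested with limma 3.58.1 (R 4.3.3). The test was two-sided, used the log2 of the normalized count plus 1 with a trend on intensity, and adjusted p by Benjamini-Hochberg. Fold changes on this scale understate those of low genes. Calls required a fold change of 1.5 or more and an adjusted p up to 0.05. On data simulated with the same spread in every library, 200 genes with a mean of at least 100 were changed 2-fold. All 200 were recovered among 15660 genes, and 4 unchanged genes were called. The calls above went down to a fold change of 1.5 and a mean of 5, and the LNA Control libraries varied more than the LNA Malat1 libraries. The simulation therefore does not give the recovery or the false calls in these data. With 3 against 3 libraries, an exact permutation test has a smallest p of 0.1. Depth covers counting error only, since reads are not independent molecules.

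The members and lists were chosen with earlier results of these data known. Genes named by rule were Malat1, the 12 members with the lowest ratio, the 5 with the highest mean, the 5 with the smallest spread, the 3 nearest each side of the limit, and up to 4 members per list. Further members named with their values were chosen after the values were seen. Gene structure came from GENCODE M21 (the transcript with the longest coding sequence), in which 204 of the 206 members have the same position, and promoters came from RefSeq (GRCm38.p6). Alternatives were other scalings, pseudocounts, filters, and limits of the rule, the replicate number as a block, and leaving out each library. LNA Malat1 replicates 1 and 3 as 1 sample was added after seeing the data. A few genes and terms that these rules select are not reported here.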

Additional observations from a re-analysis of the deposited data

How the results depend on the processing

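With other scalings the median log2 fold change of all genes tested shifted by -0.02 (median of ratios, quantile) to 0.04 (equal totals). The 206 members became 230 (median of ratios, all 206 kept), 180 (equal totals), and 181 (quantile, 180 kept), and their median log2 ratio of -0.74 became -0.71 with equal totals and -0.71 with quantile normalization. A minimum mean of 200 left 134 genes, and a stricter ratio limit of 0.6 or a looser one gave 106 or 477. With 1 library left out, 196 to 239 genes met the rule, 180 to 200 of them members, with a median log2 ratio of -0.76 to -0.74. The span of members relative to other eligible genes (2.04 times) was 2.01 to 2.19 with 1 library left out and 2.01 to 2.09 under the other settings. The exonic length (1.20 times) was 1.23 with equal totals, 1.29 at a mean of 200, 1.34 at a ratio of 0.6, and 1.17 to 1.22 with 1 library left out. Of the members, limma called 184 to 198 lower with 1 library left out, 158 in all 6 such fits, and 28 at a fold change of 2. Over all genes, quantile normalization called 694 lower and 753 higher, a fold change of 2 called 99 and 742, and no fold minimum called 2195 and 2231, against 457 and 1252. A mean of at least 50 called 317 higher and, added after seeing the data, LNA Malat1 replicates 1 and 3 as 1 sample called 796 higher. With 1 library left out 769 to 1621 were higher, with 769 without LNA Malat1 replicate 1 and 796 without LNA Malat1 replicate 3. With the replicate number as a block, 206 members, 442 genes lower, and 1297 higher were called, so the block changed no call of a member. The numbers were not taken as pairs, since the labels do not say that they mark pairs. Deviations of same-numbered libraries correlated by 0.086, 0.182, and 0.083 over 10490 genes. Those of libraries with different numbers correlated less, by -0.189 to 0.046. Whether same-numbered libraries were handled together was not tested. No named gene turned in direction under any alternative run, and 895 of 950 of their values kept the same call, while 46 values of 16 genes were no longer called and 9 were newly called. The cause of these differences was not tested.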
